A study of Mus musculus with 6 samples.

Results

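Hprt and the enzymes that build purine nucleotides were followed across 6 Illumina bead arrays of day 3 embryoid bodies, which are clumps of differentiating mouse embryonic stem (ES) cells. The genes were Hprt, Aprt, Ppat, Gart, Pfas, Paics, Adsl, Atic, Impdh2 and Prps1, and every probe whose gene symbol matched was taken. Of these 10 genes, 9 had a probe, with 17 probes among 46632, and the array held 21473 named genes in all. All 17 probes passed the filter on dim values, and 13 of them lay above the background limit on all 6 arrays. Expression of Impdh2, for which no probe was matched, was not analysed here, and only its promoter sequence was used. Hprt was selected on its measured intensities, which divide the arrays, and the enzymes beside it were added for their shared pathway. Its levels are therefore a description without a test.

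The 3 KO-labelled arrays carried total RNA of endoglin knockout ES cells, and the 3 WT-labelled arrays total RNA of wild type E14 ES cells, all differentiated to day 3. The labels give strain C57BL/6 for every sample, whereas E14 is a line of another strain background, which was not resolved here. Neither the targeted allele nor the number of clones is stated. No replicate is said to come from a separate culture, and p-values cover the spread between these arrays alone, which may be technical. The arrays lay at positions A to F of 1 slide, with KO replicates 1, 2 and 3 at B, D and F and WT replicates 1, 2 and 3 at A, C and E. Medians of the deposited intensities were 45.1 on each array, and 49.40% to 49.96% of the probes exceeded the background limit of 45.1 to 45.3. Precision is limited by having 3 arrays per label. All 9 markers of day 3 embryoid bodies, among them Pou5f1, Nanog, T and Mixl1, lay above the background limit on all 6 arrays.

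The deposited labels did not sort the arrays by their overall profile. Pairs of arrays from the same side of the slide (both at positions A to C, or both at D to F) had 0 to 2 features at least 2-fold apart, and pairs from opposite sides had 79 to 104. Pairs with the same label had 0 to 104 such features and pairs with different labels 0 to 101. The brightest probe of Eng, the targeted gene, measured 73.5, 45.4 and 48.7 on KO-labelled replicates 1, 2 and 3, and 87.0, 90.6 and 44.4 on WT-labelled replicates 1, 2 and 3. The array labelled KO replicate 1 thus lay with WT replicates 1 and 2, and the array labelled WT replicate 3 with KO replicates 2 and 3. The position of the probe relative to the deleted part of Eng is unknown here. Every direction below follows the deposited labels.

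Purine nucleotides reach the cell's pools by 2 routes. In salvage, free bases are joined to the activated sugar phosphoribosyl pyrophosphate (PRPP), hypoxanthine and guanine by Hprt and adenine by Aprt. In synthesis from small precursors, PRPP made by Prps1 enters a chain run by Ppat, Gart, Pfas, Paics, Adsl and Atic that ends in inosine monophosphate (IMP), from which Impdh2 leads to guanine nucleotides and Adsl, acting again, to adenine nucleotides. Hprt is X-linked and is widely used as a selectable marker and as an expression control. E14TG2a, a common subline of E14, was selected for loss of Hprt function. The labels name E14 without a subline, and they state no Hprt genotype for either line.

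Promoter windows of 300 bases, from 250 before to 50 after the annotated start, were taken from RefSeq (GRCm38.p6) for 9 of the 10 genes; Pfas had no entry. They are shown for Hprt (chrX:52987828-52988127, plus strand), the gene whose level divided the arrays, for Prps1 (chrX:140456353-140456652, plus strand), the other X-linked gene of the set, and for Ppat (chr5:76951529-76951828, minus strand) and Paics (chr5:76951052-76951351, plus strand), which are read in opposite directions and whose gene spans share 277 bases. Capitals mark the GC box GGGCGG, in either orientation, and the E-box CACGTG, a sequence bound by Myc and related factors.
Hprt: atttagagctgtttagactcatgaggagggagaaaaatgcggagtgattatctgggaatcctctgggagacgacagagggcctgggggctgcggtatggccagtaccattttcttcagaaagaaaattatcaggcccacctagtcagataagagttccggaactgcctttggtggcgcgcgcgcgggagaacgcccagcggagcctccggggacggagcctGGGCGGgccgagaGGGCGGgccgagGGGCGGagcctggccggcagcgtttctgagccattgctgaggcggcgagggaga
Prps1: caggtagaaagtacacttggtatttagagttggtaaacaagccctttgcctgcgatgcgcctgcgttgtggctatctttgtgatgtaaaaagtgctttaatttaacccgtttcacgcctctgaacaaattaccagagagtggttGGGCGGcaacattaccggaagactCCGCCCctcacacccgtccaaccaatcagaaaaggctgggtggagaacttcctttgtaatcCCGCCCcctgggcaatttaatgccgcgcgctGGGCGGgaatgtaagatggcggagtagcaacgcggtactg
Ppat: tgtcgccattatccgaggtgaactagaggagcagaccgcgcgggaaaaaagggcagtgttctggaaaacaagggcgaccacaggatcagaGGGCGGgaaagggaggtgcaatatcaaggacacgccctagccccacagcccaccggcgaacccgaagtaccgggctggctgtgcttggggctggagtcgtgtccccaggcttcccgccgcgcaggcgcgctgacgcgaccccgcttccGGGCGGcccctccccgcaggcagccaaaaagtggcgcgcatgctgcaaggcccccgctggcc
Paics: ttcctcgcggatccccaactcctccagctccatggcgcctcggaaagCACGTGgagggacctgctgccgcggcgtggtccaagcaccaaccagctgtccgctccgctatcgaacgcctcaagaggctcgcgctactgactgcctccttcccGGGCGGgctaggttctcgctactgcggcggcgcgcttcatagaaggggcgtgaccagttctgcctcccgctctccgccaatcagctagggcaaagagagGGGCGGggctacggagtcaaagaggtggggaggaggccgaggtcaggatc
A GC box was found on either strand in 9 of the 9 windows, against 35.6% of 32817 promoter windows in the table. The Hprt window held 3 GC boxes, that of Prps1 4, and those of Ppat and Paics 2 each. The E-box was present in 3 of the 9, namely Paics (at -203 from the start), Atic (-7) and Impdh2 (-110), against 7.15% of all windows. The TATA sequence TATAAA was found only in the Impdh2 window among the 9, against 13.6% of all windows. The windows of Hprt, Prps1, Ppat and Paics were 61%, 51.3%, 66.7% and 65.7% G and C, where the median of all windows was 52.7%. These matches describe the letters of the windows and say nothing of which factor binds there.

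Hprt (chromosome X, 52988078 to 53021660) was either close to background or strongly expressed, and the division ran across the labels. Its brightest probe had intensities of 53.1, 2328 and 2333 on KO-labelled replicates 1, 2 and 3, and of 60.5, 41.7 and 2553 on WT-labelled replicates 1, 2 and 3. KO replicates 2 and 3 and WT replicate 3 were high, and KO replicate 1 and WT replicates 1 and 2 were low, so each label held arrays of both levels. In bulk RNA, fewer cells with a transcript and less transcript per cell cannot be told apart. The lowest of the 3 high arrays was 38.5 times the highest of the 3 low ones in deposited intensity, which still contains the background. Of the 3 low arrays, WT replicate 2 lay below the background limit, while KO replicate 1 and WT replicate 1 lay just above it.

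The other Hprt probes showed the same division. The second probe measured 39.7, 708 and 824 on KO replicates 1, 2 and 3, and 41.4, 37.4 and 773 on WT replicates 1, 2 and 3. The third measured 37.3, 106 and 111 on the KO-labelled arrays and 37.1, 43.2 and 100 on the WT-labelled arrays, in the same order of replicates. On both of these probes KO replicate 1 and WT replicates 1 and 2 lay below the background limit. All 3 probes were designed to the same Hprt transcript record, and their positions within it are not given in the files used here.

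**Figure D1:**
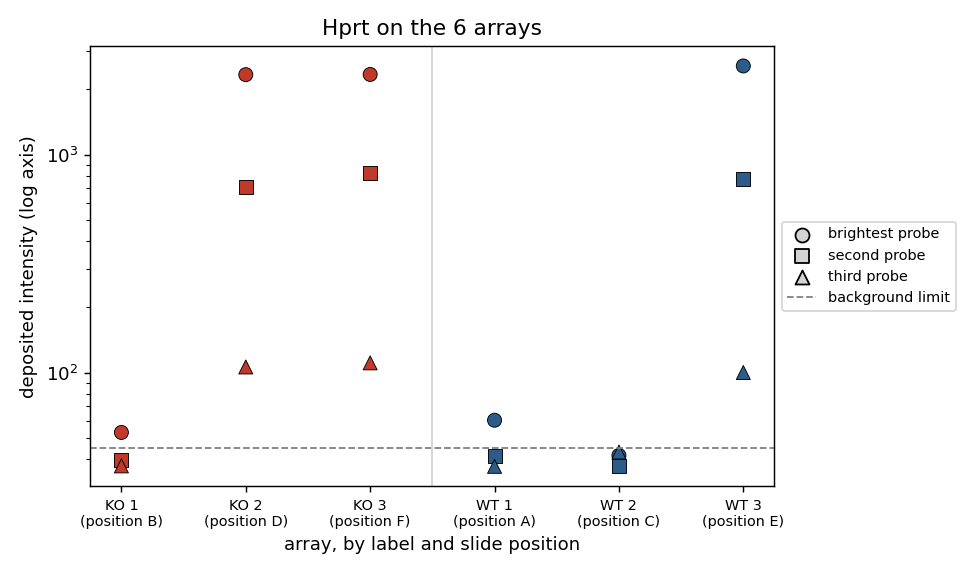
Deposited intensity (log axis) of the 3 Hprt probes on each array, KO-labelled arrays left and WT-labelled arrays right, with the slide position under each name and the background limit dashed. KO replicates 2 and 3 and WT replicate 3 are high on every probe, and the other 3 arrays lie at or near the limit.

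Because the division crossed the labels, the label means of Hprt carried a spread as large as themselves. The brightest probe averaged 1572 ± 1315 in KO-labelled arrays and 885 ± 1444 in WT-labelled arrays (SD, n = 3 each). On the corrected log2 scale the means were 9.55 in KO-labelled and 7.91 in WT-labelled arrays, a difference of 1.64 (SE 1.73). Within slide positions A to C the KO-labelled array minus the mean of the 2 WT-labelled arrays was 0.05, and within D to F the mean of the 2 KO-labelled arrays minus the WT-labelled one was -0.13. The high arrays were those at positions D, E and F, so small Hprt differences within each side follow from the division itself. Without KO replicate 1 and WT replicate 3 the difference was 5.003, a value that follows from leaving arrays out for their levels.

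Hprt had the widest spread of any feature on these arrays. On the corrected log2 scale its highest and lowest arrays were 5.32 apart, against a second widest of 3.16 and a median of 0.26 over 16601 features. Only 149 features, 0.898%, spanned at least 1 unit, which is a 2-fold difference. Among the 9 measured genes of the set Hprt was the only such feature, and the other 8 had ranges of 0.18 to 0.41.

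**Figure D2:**
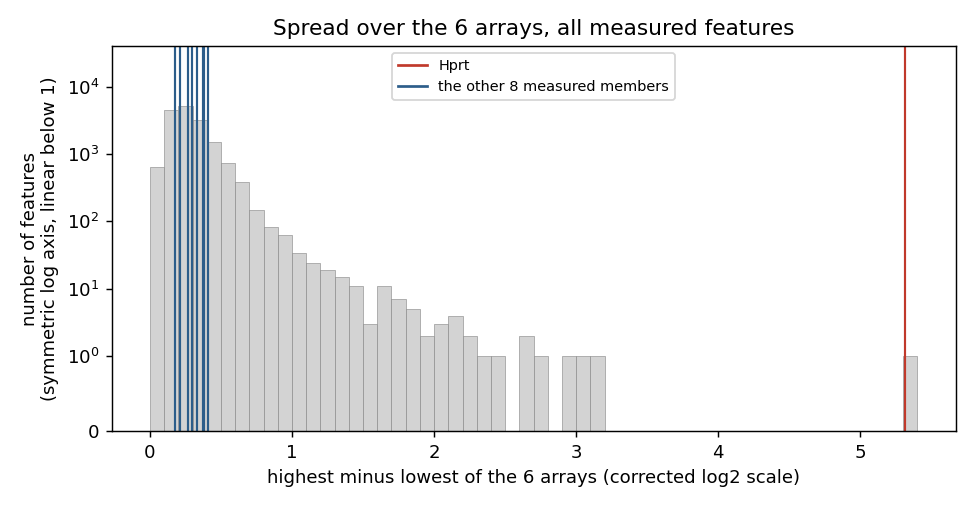
Histogram of the difference between the highest and the lowest of the 6 arrays (corrected log2 scale) for 16601 features, with the vertical axis logarithmic above 1. Hprt stands alone at 5.32, and the other 8 measured genes of the set lie between 0.18 and 0.41, within the bulk of all features.

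Aprt (chromosome 8), which salvages adenine and is the closest counterpart of Hprt in function, was bright on every array. It measured 4196, 4229 and 4133 on KO replicates 1, 2 and 3, and 5066, 4862 and 3910 on WT replicates 1, 2 and 3. The KO-labelled arrays lay within the range of the WT-labelled ones. The array with the lowest Aprt, WT replicate 3, was the one with the highest Hprt, but KO replicates 2 and 3, also high in Hprt, lay on either side of KO replicate 1 in Aprt. The means were 4186 ± 49 in KO-labelled and 4613 ± 617 in WT-labelled arrays (SD, n = 3 each), with a log2 difference of -0.13 (SE 0.10).

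Prps1 (chromosome X, 140456603 to 140476140), which makes PRPP for both routes, did not share the division of Hprt. Its log2 range of 0.33 was above the median of 0.26 over all features. It measured 1938, 2078 and 1858 on KO replicates 1, 2 and 3, and 2247, 1964 and 2342 on WT replicates 1, 2 and 3. The labels overlapped, since KO replicate 2 exceeded WT replicate 2. At -0.15 (SE 0.08), its log2 difference was the lowest of the 9 genes.

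Ppat (chromosome 5) encodes the amidotransferase that commits PRPP to purine synthesis. Its brighter probe measured 465, 513 and 381 on KO replicates 1, 2 and 3, and 478, 506 and 500 on WT replicates 1, 2 and 3. KO replicate 3 was the low array and KO replicate 2 the highest, so the spread lay within the KO label, and the log2 difference was -0.13 (SE 0.10). Its dimmer probe stayed between 54.0 and 65.2, close to background. Paics (chromosome 5), the bifunctional enzyme of the carboxylation and the step after it, is the gene read away from Ppat. It measured 1333, 1288 and 1343 on KO replicates 1, 2 and 3, and 1508, 1200 and 1151 on WT replicates 1, 2 and 3, with a log2 difference of 0.05 (SE 0.10). The WT-labelled arrays held both the highest and the lowest Paics values, and the array lowest in Ppat, KO replicate 3, was not low in Paics.

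Gart (chromosome 16), a trifunctional enzyme of the early chain, had the same 3 arrays on top as Hprt only by a tie. Its brighter probe measured 2057, 2278 and 2162 on KO replicates 1, 2 and 3, and 1964, 2162 and 2375 on WT replicates 1, 2 and 3. Its second probe measured 1141, 1087 and 1227 on the KO-labelled arrays and 1049, 1153 and 1252 on the WT-labelled arrays. On both probes WT replicate 1 was lowest and WT replicate 3 highest, and the log2 difference between the labels was 0.002 (SE 0.08) on the brighter. Pfas (chromosome 11), the amidotransferase of the step between 2 Gart activities, measured 1816, 1648 and 1586 on KO replicates 1, 2 and 3, and 1567, 1580 and 1633 on WT replicates 1, 2 and 3, a log2 difference of 0.08 (SE 0.07). KO replicate 1 was the highest and WT replicate 1 the lowest. Its dimmer probe ranged from 66.2 to 84.2 and had the opposite sign, -0.08 (SE 0.08).

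Adsl (chromosome 15), the lyase used both before IMP and on the way to adenosine monophosphate, was the only other gene of the set whose 3 highest arrays were those of Hprt. It measured 958, 1107 and 1123 on KO replicates 1, 2 and 3, and 973, 916 and 1127 on WT replicates 1, 2 and 3. The step was small, with a highest array 1.23 times the lowest, and 15.1% of all features had arrays D to F above arrays A to C, with a further 14.6% below. The log2 difference between the labels was 0.08 (SE 0.10). The dimmer Adsl probe, at 39.1 to 53.0, straddled the background limit. It measured 46.5 and 53.0 on KO replicates 2 and 3 and 46.8 on WT replicate 3, against 39.1 to 42.6 on the other arrays. It thus had the same 3 highest arrays and passed the filter only through them.

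Atic (chromosome 1), which closes the ring to give IMP, had probes that disagreed about the labels. The brightest measured 960, 930 and 1001 on KO replicates 1, 2 and 3, and 957, 1001 and 884 on WT replicates 1, 2 and 3, and the labels overlapped (log2 difference 0.03, SE 0.07). The second measured 284, 295 and 297 on the KO-labelled arrays and 368, 345 and 340 on the WT-labelled arrays. All 3 KO-labelled values of that probe were below all 3 WT-labelled values, with a log2 difference of -0.25 (SE 0.06). It was the only 1 of the 17 probes whose labels did not overlap, where 7.16% of all 23419 kept probes had such labels. With every probe tested, its limma adjusted p was 1, and its unadjusted p was 0.00386. The third Atic probe, at 50.5 to 55.4, was close to background.

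**Figure D3:**
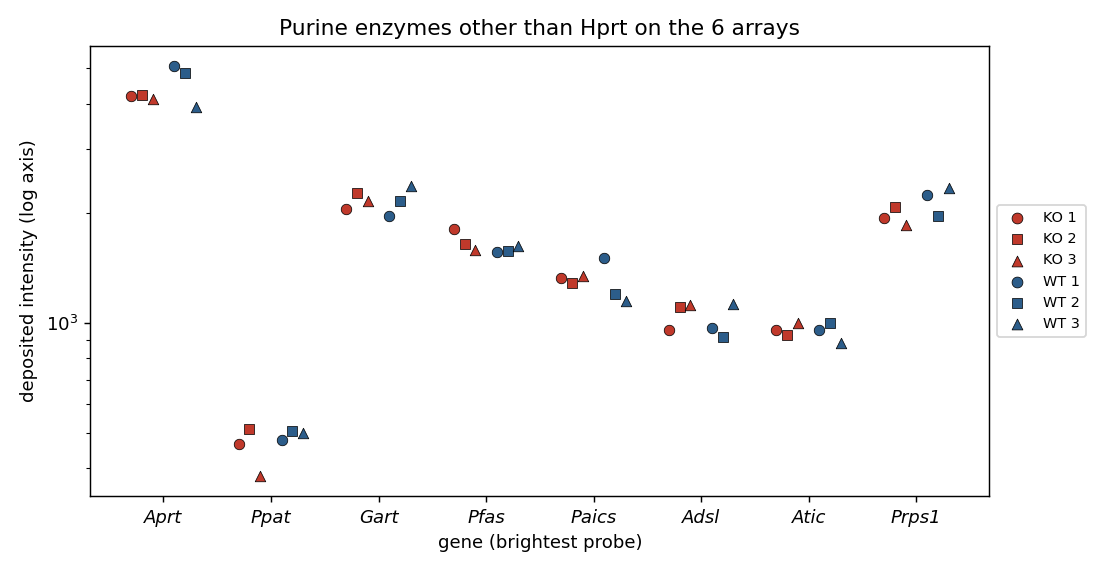
Deposited intensity (log axis) of the brightest probe of each measured purine gene other than Hprt, KO-labelled arrays in red to the left and WT-labelled arrays in blue to the right within each gene. The labels overlap in all 8 genes, and levels run from 381 for Ppat to 5066 for Aprt. Levels of different probes are not comparable with each other.

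None of the 8 measured genes other than Hprt passed the comparison of the labels. With limma over all 16601 features, 0 of 8 were higher and 0 lower in KO-labelled arrays at a Benjamini-Hochberg adjusted p under 0.05, where 0% of all features were called. The adjusted p was 0.999 for each. At an unadjusted p under 0.05 there were 0 of the 8, against 2.26% of all features. Of the 8 genes, 5 had higher and 3 lower values under the KO label, with differences of -0.15 to 0.08 and a median of 0.01, against 51.3% higher and a median of 0.0025 over all features. Without KO replicate 1 and WT replicate 3, which were left out for their values, 0 of the 8 passed, against 1294 of all 16601 features. At an unadjusted limma p under 0.05 there were 3 of the 9 measured genes, Hprt included, against 3488 of all features. The differences were -0.25 for Aprt, -0.10 for Prps1, -0.15 for Ppat, 0.11 for Gart, 0.04 for Pfas, -0.03 for Paics, 0.23 for Adsl and -0.02 for Atic. The limma adjusted p was then 0.0957 for Aprt, 0.115 for Adsl and 0.561 to 0.935 for the other 6. Labels that did not overlap were seen for 0 of the 8 brightest probes, against 7.07% of all features.

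**Figure D4:**
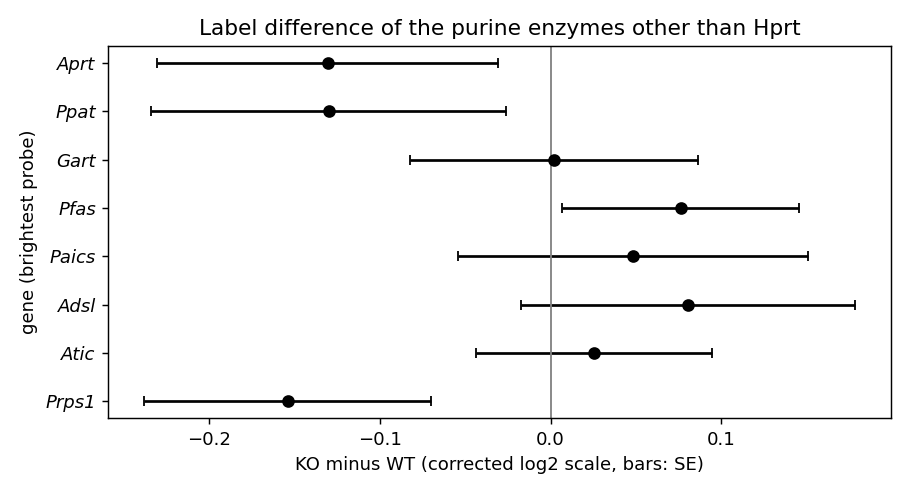
Difference between KO-labelled and WT-labelled arrays on the corrected log2 scale for the 8 measured genes other than Hprt, with bars of 1 SE from limma. The differences lie between -0.15 for Prps1 and 0.08 for Adsl.

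No gene around the purine chain passed the comparison of the labels, in which 0% of all 16601 features were called. Of 34 genes of purine interconversion, salvage and breakdown, 30 were measured, 0 rose and 0 fell, and 12 had higher and 18 lower values under the KO label (median -0.02). Over all features 51.3% were higher. None of the 30 genes had a range of 1 log2 unit. The smallest p belonged to Ampd1, a muscle deaminase of adenosine monophosphate, at 48.7, 44.0 and 49.0 on KO replicates 1, 2 and 3, and 58.6, 59.3 and 52.1 on WT replicates 1, 2 and 3, near the background limit. Its log2 difference was -0.18 (SE 0.07, limma adjusted p = 0.999, unadjusted 0.0263). Adss, which acts beside Adsl on the way to adenosine monophosphate, differed by 0.14 (SE 0.07) and Nme2, a nucleoside diphosphate kinase, by -0.14 (SE 0.08). Impdh1, the paralogue of Impdh2, measured 304, 248 and 258 on KO replicates 1, 2 and 3, and 299, 285 and 217 on WT replicates 1, 2 and 3. Impdh1 was picked with its values in view.

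Folate enzymes supply the one-carbon units that Gart and Atic use. Of 18 listed genes 15 were measured, 0 rose and 0 fell, and 8 had higher and 7 lower values under the KO label (median 0.02). Mthfd2l differed by -0.16 (SE 0.07), Psat1, of serine synthesis, by -0.18 (SE 0.11) and Mthfs by 0.09 (SE 0.06). Among pyrimidine genes 11 of 12 were measured, 0 rose and 0 fell, with 5 higher and 6 lower (median -0.03). For both lists the shares over all features were 0% called and 51.3% higher under the KO label. Cad, the first enzyme of pyrimidine synthesis, measured 324, 313 and 327 on KO replicates 1, 2 and 3, and 264, 287 and 277 on WT replicates 1, 2 and 3. The Cad labels did not overlap, but its log2 difference of 0.20 (SE 0.06) had a limma adjusted p of 0.999 and an unadjusted p of 0.0108. Labels did not overlap for 2 of the 30 purine genes above, 3 of the 15 folate genes and 1 of the 11 pyrimidine genes. The share over all features was 7.07%. Tk1, the thymidine kinase of salvage, differed by -0.12 (SE 0.08) and Uck2 by -0.06 (SE 0.06).

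The brightest probes of other genes often used as expression controls had narrow ranges. Of 12 such genes 10 were measured, 0 rose and 0 fell, 1 was higher and 9 lower under the KO label (median -0.03), and none had a range of 1 log2 unit. The shares over all features were 0% called and 51.3% higher. The widest range of the 10 brightest probes was 0.55, while a dimmer Actb probe had a range of 0.92 (181 to 363). On all of the arrays high in Hprt, 1 of the 10 (Tbp) was higher and 3 (Ppia, B2m and Tfrc) lower than on the others. Among all features, 15.1% were higher and 14.6% lower in that way. Gapdh measured 24826, 24094 and 26344 on KO replicates 1, 2 and 3, and 25297, 25568 and 24826 on WT replicates 1, 2 and 3. Gapdh, too, was picked with its values in view. B2m differed by -0.15 (SE 0.12), Actb by 0.10 (SE 0.08) and Ppia by -0.05 (SE 0.06).

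Genes next to Hprt on chromosome X did not all share its direction. Of the 4 nearest measured genes on each side, 3 were higher and 5 lower on all of the arrays high in Hprt than on the others. Thus 0 of the 8 overlapped, where 15.1% of all features were higher and 14.6% lower in that way. Higher were Ccdc160 (111 to 167), Mospd1 (114 to 153) and 4933416I08Rik (7954 to 11012). Lower were Gpc3, A630012P03Rik, Phf6, C430049B03Rik and Fam122b. A630012P03Rik lay below the background limit on the 3 arrays high in Hprt (39.3 to 43.9). It passed the filter only through the other 3 arrays, which made its lack of overlap certain. The nearest before it was Phf6, a chromatin protein gene 75.9 kb away, at 606, 478 and 540 on KO replicates 1, 2 and 3, and 577, 583 and 493 on WT replicates 1, 2 and 3. The nearest after it was C430049B03Rik, 65.0 kb away, at 154, 59.8 and 50.4 on the KO-labelled arrays and 148, 137 and 59.7 on the WT-labelled arrays. That gene was low where Hprt was high, and so was Gpc3, a glypican 715.7 kb before Hprt, at 2051, 736 and 818 on KO replicates 1, 2 and 3, and 2261, 2434 and 693 on WT replicates 1, 2 and 3. The highest array of Gpc3 was 3.51 times its lowest and that of Phf6 1.27 times. Gpc3, with the widest range of the 8 neighbours, was picked with its values in view. Over the 483 other measured genes of chromosome X the median range was 0.28, and 10 of them had a range of at least 1. Of 4 Y-linked genes, the brightest probes of Eif2s3y measured 242 to 371 and of Uty 49.8 to 72.3 over the 6 arrays, while those of Kdm5d (40.6 to 49.1) and Ddx3y (33.9 to 47.2) exceeded the background limit on 3 arrays and 1 array. Xist, the RNA that coats an inactive X chromosome, measured 64.2 to 70.5.

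**Figure D5:**
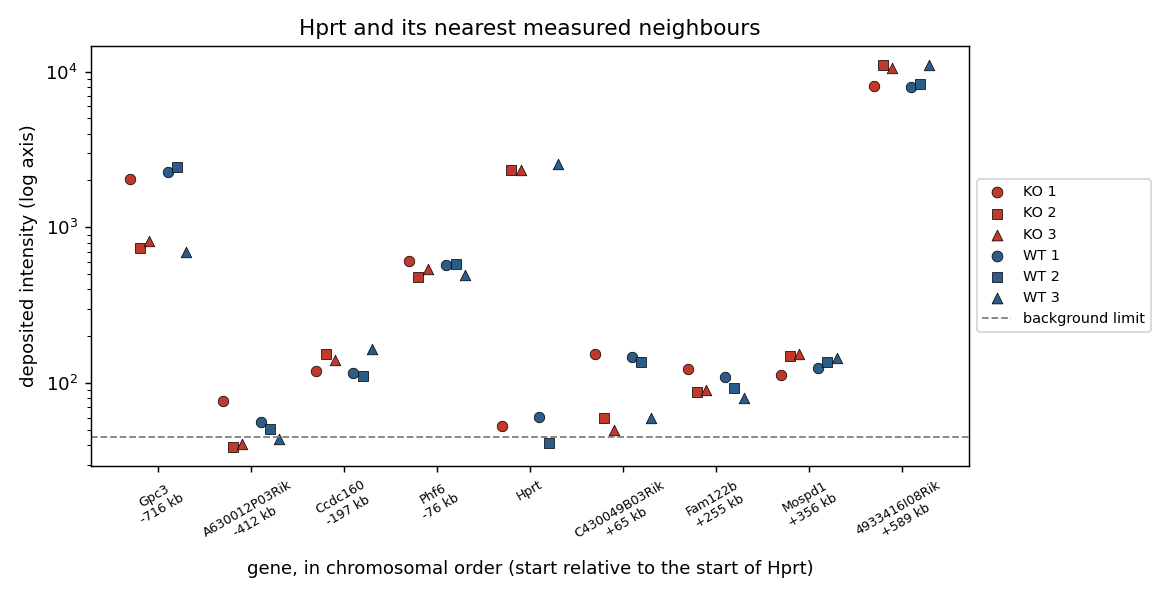
Deposited intensity (log axis) of Hprt and its 8 nearest measured neighbours in chromosomal order, with the distance of each start from the start of Hprt in kb and the background limit dashed. Gpc3 and C430049B03Rik are low on the arrays where Hprt is high, and Phf6 spans 1.27-fold from its lowest to its highest array. Ccdc160, Mospd1 and 4933416I08Rik are higher on the arrays where Hprt is high.

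Genes outside the set followed the Hprt pattern in both directions. Among 136 other named genes with a range of at least 1 log2 unit, the highest Pearson correlations with Hprt over the 6 arrays were those of Eras (0.997), Dppa4 (0.996), Rhox5 (0.995), Prob1 (0.994), Ppp1r1a (0.993) and Prrg3 (0.992). Eras, a Ras family gene of ES cells that lies on chromosome X, measured 506, 1063 and 988 on KO replicates 1, 2 and 3, and 535, 518 and 1067 on WT replicates 1, 2 and 3. Rhox5, an X-linked homeobox gene, measured 282, 861 and 941 on the KO-labelled arrays and 310, 314 and 910 on the WT-labelled arrays. The lowest correlations were those of Lefty2 (-0.999), Igf2 (-0.999), Pdgfra (-0.998), Etv2 (-0.997), Igfbp4 (-0.997) and Bmp4 (-0.997). Igf2, an imprinted growth factor gene, measured 5679, 1618 and 1640 on KO replicates 1, 2 and 3, and 5357, 5563 and 1638 on WT replicates 1, 2 and 3. All of these correlations rest on 6 arrays that fell into 2 levels of Hprt, which share a slide and a normalization, so they describe which arrays were high and carry no p.

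Markers of other cells that an embryoid body culture can hold were measured beside these genes. Of 10 fibroblast genes, the markers of feeder layers, 3 lay above the background limit on all arrays, and Col1a1, Col1a2, Col3a1 and Lum lay above it on none. Their summed intensity was 699 to 714 on the KO-labelled arrays and 717 to 744 on the WT-labelled arrays, a sum that includes genes at background. Of the 4 fibroblast genes kept by the filter, labels did not overlap for 2, against 7.07% of all features. Acta2 was lower under the KO label, by -0.21 (SE 0.07), and Dcn, near the background limit, higher by 0.13 (SE 0.06). The sum of 5 extraembryonic endoderm genes, of which 4 lay above the limit on all arrays, was 2146, 1326 and 1333 on KO replicates 1, 2 and 3, and 2362, 2470 and 1117 on WT replicates 1, 2 and 3. The sum was low where Hprt was high. Of the 4 members kept by the filter, Gata4, Gata6 and Sox17 were lower, and Dab2 higher, on all 3 of those arrays than on the others. The day 3 markers also divided along Hprt: Pou5f1, Nanog, Sox2 and Fgf5 were higher and T, Mixl1 and Mesp1 lower on its 3 high arrays than on the others, and Eomes and Kdr overlapped. Among all features, 15.1% were higher and 14.6% lower in that way. Mesp1, a nascent mesoderm factor, measured 3105, 797 and 849 on KO replicates 1, 2 and 3, and 3723, 3379 and 549 on WT replicates 1, 2 and 3. It had the widest log2 range of the 9 markers, 2.71, and was picked with its values in view. The summed level of the 9 markers was 16483 to 18073 on the KO-labelled arrays and 15450 to 18058 on the WT-labelled arrays. The part of these markers in the Hprt values was not tested.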

How the data were processed

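Total RNA of day 3 embryoid bodies was hybridised to 6 Illumina mouse bead arrays. The deposited intensity values are linear. The sources used here do not give the authors' normalization of them; all 6 columns share 1 highest value and nearly 1 median. The 12 value columns of a second deposited table match no sample label and were not used. Probes were named from the platform annotation (29976 probes) or, where it names none, from that table's symbol column through RefSeq symbols (7382 probes); 9274 were not named, 10 of them because they match several genes.

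Background was corrected by normexp (offset 50, limma 3.58.1, R 4.3.3) before taking log2, without a further quantile step, since the columns already shared a distribution. The offset shrinks differences of dim probes. A probe was kept when above the background limit, the 95th percentile of a normal background around the array's most frequent intensity, on at least 3 arrays. The brightest probe stood for each gene. Labels were compared with lmFit and eBayes (two-sided, Benjamini-Hochberg over 16601 features, threshold 0.05). Only the label comparison was tested on simulated data, which were drawn without the division between the sides of the slide.

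The genes, lists, neighbours and alternatives were chosen with earlier results of these data known. Named were all measured genes of the set, the 6 most and least correlated with Hprt, 4 neighbours per side, Eng, and the 3 smallest p of each pathway list and of the expression controls; genes chosen otherwise are marked. Cell marker lists were given as counts, sums, ranges or directions of their fixed members, with the values of Mesp1 added. Acta2 and Dcn were named because their labels did not overlap. Alternatives changed the background step, the scaling, the filter, the probe, the moderation, array weights, blocks and the arrays used.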

Additional observations from a re-analysis of the deposited data

How the results depend on the processing

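The count of called features was 0 under each alternative run (background peak subtracted or uncorrected, cyclic loess, quantile, stricter or no filter, all probes, robust trended moderation, weighted arrays, replicate block, slide position block, each array left out), except without the arrays labelled KO replicate 1 and WT replicate 3 together. There it was 1294, with 609 higher and 685 lower under the KO label, and the count among the 9 measured genes was 1, Hprt, at a log2 difference of 5.003. Arrays left out for their values give no independent evidence. The same omission gave Paics -0.0316 and Atic -0.0199, the signs opposite to those with all arrays. With the slide position block Hprt was -0.0395 and Gart -0.0498. That block separates the arrays low in Hprt from those high in it, so its small Hprt difference follows from the split. Leaving out 1 array, or the 2 together, gave -0.0660 to 0.1056 for Gart, -0.0316 to 0.1662 for Paics and -0.0225 to 0.0656 for Atic, none of which had passed; the signs turned without KO replicate 2 or WT replicate 1 for Gart (-0.0346 and -0.0660), without WT replicate 3 for Paics (-0.0253), and without KO replicate 3 or WT replicate 3 for Atic (-0.0019 and -0.0225). The cause was not tested. Aprt, Ppat, Pfas, Adsl and Prps1 kept their sign under all 18 alternatives, but their size moved: leaving out 1 array gave -0.2445 to -0.0587 for Aprt (ends without WT replicates 3 and 1), -0.2206 to -0.0164 for Ppat (KO replicates 2 and 3), 0.0209 to 0.1174 for Pfas (KO replicates 1 and 3), 0.0175 to 0.1638 for Adsl (WT replicates 2 and 3) and -0.2276 to -0.1021 for Prps1 (WT replicates 2 and 3). For Hprt it gave 0.6938 to 3.3522 (WT replicates 2 and 3). The Hprt range of 5.32 was 7.30 with the background peak subtracted and 1.15 on the third, dimmest probe.

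Same-numbered arrays of the 2 labels correlated in their deviations from the label means at 0.612, -0.302 and 0.535 for numbers 1, 2 and 3. Between the labels, every pair of arrays from the same side of the slide correlated positively and every pair from opposite sides negatively. The signs thus followed the division, so these values cannot tell whether the numbers pair the samples. The replicate block changed the count of calls by 0. Signal near background limits the low Hprt values, whose true ratio to the high ones cannot be set.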
